A study of Rattus norvegicus with 20 samples.

Results

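The miR-30 family was followed through acute injury by aristolochic acid I in the rat kidney. The 7 members were the guide strands rno-miR-30a-5p, rno-miR-30b-5p, rno-miR-30c-5p, rno-miR-30d-5p and rno-miR-30e-5p, and the 3p arms rno-miR-30a-3p and rno-miR-30e-3p. They were taken by name from the 719 rat microRNAs (miRNAs) on each array. Another 4 arms of the family on the array, rno-miR-30b-3p, rno-miR-30c-1-3p, rno-miR-30c-2-3p and rno-miR-30d-3p, were no members and are given separately.

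Kidneys came from male Wistar rats of 80 to 100 g. Aristolochic acid I (AAI), a plant compound that damages proximal tubules and forms DNA adducts, was given intraperitoneally at 40 mg per kg. The labels give treatment over 6 days but not how often AAI was given, so the days may differ in total dose as well as in time. AAI kidneys were taken at 3 times, at days 2, 4 and 6. The vehicle rats received polyethylene glycol (PEG400) in water at 1:1 on the same schedule and were represented by day 6 only. There were 5 kidneys in each of the 4 groups and 1 Cy3-labelled Agilent array per kidney, 20 arrays in all, so that days 2 and 4 had no vehicle kidneys of their own day. The RNA came from whole kidney tissue, in which fewer cells of a type and less miRNA per cell cannot be told apart.

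A miRNA is cut from a hairpin precursor, and the arm that stays in the silencing complex (the guide) finds its targets mainly through its seed, the bases just after the first. The miR-30 guides share a seed and are abundant in kidney, where they are known from podocytes and from tubule epithelium. In podocytes they are known to restrain Notch and calcineurin signalling, and loss of the family is linked to podocyte injury. The 3p arms carry other seeds and so other targets.

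The mature sequences below, from the RefSeq table on the GRCr8 build, are shown because the shared seed and the few differing bases define the family. Capitals mark the seed (bases 2 to 8).
rno-miR-30a-5p: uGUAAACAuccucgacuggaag
rno-miR-30e-5p: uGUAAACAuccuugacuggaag
rno-miR-30c-5p: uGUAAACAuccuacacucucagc
rno-miR-30a-3p: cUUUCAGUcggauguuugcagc

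In that table the seed GUAAACA of the 3 guides shown was also that of rno-miR-384-5p, a comparison that did not include rno-miR-30b-5p or rno-miR-30d-5p. The seed UUUCAGU of rno-miR-30a-3p was carried by no other entry of the table, a comparison that did not include rno-miR-30e-3p or rno-miR-30d-3p. The Mir30e hairpin also holds the run UUUCAGU on its 3p side, so rno-miR-30e-3p may carry the same seed. Counted from the 5′ end, rno-miR-30e-5p differed from rno-miR-30a-5p by C13U alone. Against rno-miR-30a-5p, rno-miR-30c-5p differed within the compared 22 bases by C13A, G14C, G18C, G19U and A20C, all outside the seed. rno-miR-30b-5p, rno-miR-30d-5p and rno-miR-30e-3p are named only.

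The hairpins of miR-30a and miR-30e are shown because both of their arms are members. Capitals mark the mature arms in Mir30a, and in Mir30e the 5p arm and the 18 bases bound by the longer probe for rno-miR-30e-3p. Mir30a lies at chr9:33233941-33234011 (plus strand) and Mir30e at chr5:139637450-139637541 (minus strand) on GRCr8.
Mir30a: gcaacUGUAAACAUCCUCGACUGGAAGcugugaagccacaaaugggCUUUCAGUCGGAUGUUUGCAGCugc
Mir30e: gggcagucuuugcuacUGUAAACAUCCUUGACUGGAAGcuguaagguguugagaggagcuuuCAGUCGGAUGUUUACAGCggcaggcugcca

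The 6 hairpin genes are neighbours in pairs, Mir30c1 with Mir30e on chromosome 5, Mir30b with Mir30d on chromosome 7 and Mir30a with Mir30c2 on chromosome 9. In the same annotation Mir30c1 and Mir30e lie within the bounds of the protein-coding gene Nfyc, and Mir30b and Mir30d within a long noncoding RNA gene. Mir30c2 lies within a noncoding RNA gene and a pseudogene, and no other gene overlapped Mir30a. Whether these places are exonic or intronic was not examined. Mir30c1 and Mir30c2 give the same guide, so the signal of rno-miR-30c-5p joins both loci.

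Each member was read by 2 probes of 10 spots each, and the longer one is given here because the near identity of the guides carries over to what the array could tell apart. Probes are antisense DNA, 5′ to 3′.
rno-miR-30a-5p probe: cttccagtcgaggatg
rno-miR-30e-5p probe: cttccagtcaaggatgt
rno-miR-30d-5p probe: cttccagtcgggga
rno-miR-30b-5p probe: agctgagtgtaggatgt
rno-miR-30c-5p probe: gctgagagtgtaggatgt
rno-miR-30a-3p probe: gctgcaaacatccgact
rno-miR-30e-3p probe: gctgtaaacatccgactg

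Over the bases they share, the probes of rno-miR-30a-5p and rno-miR-30e-5p differed by G10A alone and those of rno-miR-30a-5p and rno-miR-30d-5p by A11G alone, counted from the probe's 5′ end. The probes of the 2 member 3p arms differed by C5T alone. These comparisons ran from the probes' 5′ ends. Set from the 3′ end instead, the probes of rno-miR-30b-5p and rno-miR-30c-5p share a long unbroken run of bases. The guides of miR-30a, miR-30d and miR-30e, those of miR-30b and miR-30c, and the 3p arms of miR-30a and miR-30e may therefore share signal by cross-hybridisation. This was not tested. On the rn4 build of the array design, the probe shown for rno-miR-30a-5p covers chr9:22142900-22142915 and that for rno-miR-30e-5p chr5:141365136-141365152.

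All 7 members were detected on all 20 arrays, with every spot of their probes well above background and none saturated. Together they gave 8.79% ± 0.125 (SD, n = 5) of the summed miRNA signal in vehicle and 8.96% ± 0.228 at AAI day 2. The share was 8.82% ± 1.09 at day 4 and 8.43% ± 0.702 at day 6. This is a share of fluorescence and not of molecules, since probes differ in brightness. A level below is the log2 of a miRNA's signal relative to the 75th percentile of its array, so that 0 is that percentile and 1 unit is a doubling. Levels of different members were read by different probes and are not ranked against each other.

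A few facts of the series bear on all members. The arrays sat on 3 slides, and 4 of the vehicle arrays were the only arrays of the series on slide 3. The other vehicle array shared slide 2 with the whole day 2 group and 2 of the day 4 group. The whole day 6 group shared slide 1 with the remaining 3 of day 4. Between 250 and 328 miRNAs were detected per array, the most on AAI day 4 replicate 2, which stood apart (its group's pairwise correlations went down to 0.912, against at least 0.980 in vehicle). The percentile used for scaling had a mean signal of 367 over the vehicle arrays, and of 452, 472 and 480 over those of AAI days 2, 4 and 6, so that scaling lowers the AAI arrays against vehicle. All 5 kidney epithelial markers fixed for the tissue check were detected on every array. Of 3 erythroid markers on the array, rno-miR-451-5p was detected on 20 of 20 arrays, rno-miR-144-3p on 8 and rno-miR-144-5p on 0.

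Of the 7 members, 1 passed the test at AAI day 6 against vehicle, rno-miR-30e-3p, which fell (limma, Benjamini-Hochberg adjusted p = 0.0171). In limma's F test over the 4 groups it did not pass (adjusted p = 0.0835), where 47 of 262 miRNAs did. The call at AAI day 6 against vehicle is 1 of 7 (0 higher). It stands beside 26.0% of all 262 tested miRNAs called in that comparison, 18.7% lower, so the family did not hold more calls than the background. The day 6 and vehicle arrays did not overlap for 0 of 7 members, beside 23.3% of all tested. No member passed at AAI day 2, where 1.53% of all tested were called, at AAI day 4 (3.44%), or between AAI days (11.1% for day 6 against day 2, 0.763% for day 6 against day 4 and 0% for day 4 against day 2). At an unadjusted p under 0.05 the same limma fit had 1 member in day 6 against day 2, rno-miR-30e-3p again, and 0 in each of the other comparisons with no call.

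rno-miR-30e-3p, the 3p arm of miR-30e, had levels of -0.69, -0.72, -0.64, -0.58 and -0.63 in the vehicle kidneys. At AAI day 2 they were -0.68, -0.66, -0.75, -0.84 and -0.74, and at day 4 -0.86, -1.07, -0.64, -0.67 and -0.85. At day 6 they were -1.25, -0.69, -0.98, -0.98 and -0.93. The vehicle kidneys lay close together, and 4 of the 5 day 6 kidneys lay below all of them, while day 6 replicate 2 lay inside the vehicle range, so the groups overlapped. The mean went from -0.65 ± 0.06 (SD, n = 5) in vehicle to -0.97 ± 0.20 at day 6, a log2 difference of -0.31 ± 0.09 (SE, 95% interval -0.51 to -0.12), or 1.24-fold lower. The differences at day 2 (-0.08 ± 0.09 SE, adjusted p = 0.795) and day 4 (-0.16 ± 0.09 SE, adjusted p = 0.297) did not pass in the limma fit. Their 95% intervals were -0.28 to 0.11 and -0.36 to 0.03. Between AAI day 6 and day 2 the difference was -0.23 ± 0.09 SE (adjusted p = 0.114).

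The call on rno-miR-30e-3p depended on how arrays were brought to a common scale, and no slide held both AAI day 6 and vehicle arrays. Without scaling the difference was 0.06 (adjusted p = 0.807), and scaled to the labelling spike-ins it was -0.06 (adjusted p = 0.876). The call was also lost with the array median for scaling (-0.27, adjusted p = 0.220), with normexp background correction (-0.23, adjusted p = 0.134) and with quantile normalization (-0.23, adjusted p = 0.0981). It was lost as well with the software's total signal (-0.10, adjusted p = 0.556) and in the deposited series table (-0.18, adjusted p = 0.180). Fitted with a fixed block for slide it was -0.57 (adjusted p = 0.0331), but -0.47 (adjusted p = 0.158) once AAI day 4 replicate 2, 1 of the 2 day 4 arrays on slide 2, was left out. With slide as a random block it was -0.41 (adjusted p = 0.0327). The median of all 262 tested miRNAs was -0.11 at day 6 when scaled and 0.26 without scaling. Dropping the scaling adds the same 0.37 to every member's difference, so the distance of rno-miR-30e-3p from that median is the same by construction.

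**Figure D1:**
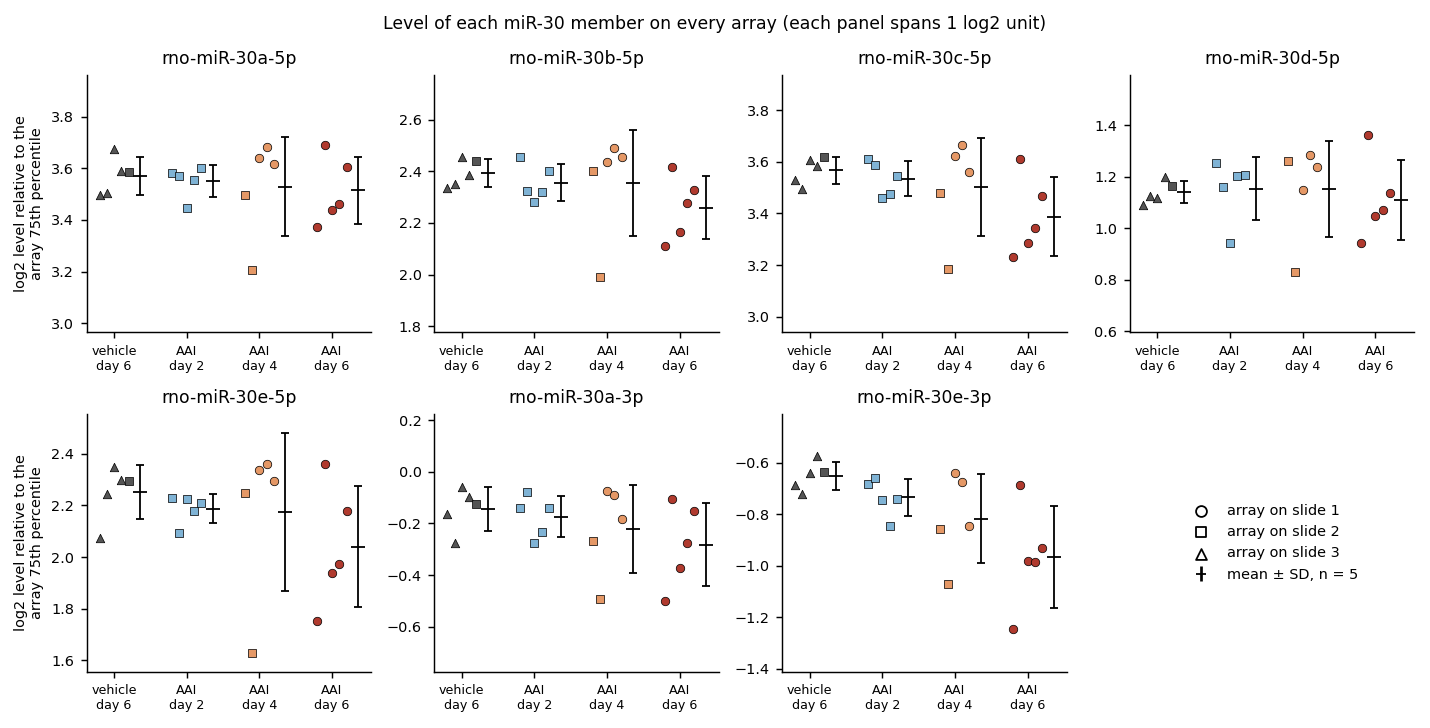
Level of each member (log2 relative to the array's 75th percentile) on every array, by group; symbols give the slide, and bars give mean ± SD over 5 arrays. On this scale the lowest day 4 value of all members is replicate 2, and the lowest and highest day 6 values are replicates 1 and 2. For rno-miR-30e-3p, 4 of 5 day 6 arrays lie below every vehicle array.

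rno-miR-30e-5p, the guide of the same hairpin, had levels of 2.08, 2.25, 2.35, 2.30 and 2.29 in vehicle. The AAI day 2 levels were 2.23, 2.09, 2.22, 2.18 and 2.21, and the day 4 levels 2.25, 1.63, 2.34, 2.36 and 2.30. At day 6 they were 1.75, 2.36, 1.94, 1.97 and 2.18. Day 4 replicate 2 was far below its group and day 6 replicate 1 was the next lowest, while day 6 replicate 2 was above all vehicle kidneys, so the groups overlapped. The day 6 difference of -0.21 ± 0.13 (SE) did not pass (adjusted p = 0.215, interval -0.48 to 0.06). Its spread at day 6 (SD 0.235) was wider than in vehicle (SD 0.106). Without scaling the order turned, with an SD of 0.197 at day 6 and 0.289 in vehicle.

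The guide rno-miR-30c-5p, made by both miR-30c hairpins, had levels of 3.53, 3.50, 3.61, 3.58 and 3.62 in vehicle and 3.23, 3.61, 3.29, 3.34 and 3.47 at AAI day 6. Again 4 of 5 day 6 kidneys lay below all vehicle kidneys and replicate 2 lay inside their range. The difference was -0.18 ± 0.09 (SE, adjusted p = 0.130, interval -0.36 to 0.01). It was called in 3 of 28 alternatives, after quantile normalization (-0.27, adjusted p = 0.0249), with a fixed slide block (-0.52, adjusted p = 0.0305) and without AAI day 6 replicate 2 (-0.24, adjusted p = 0.0465). At days 2 and 4 its means were 3.54 ± 0.07 and 3.50 ± 0.19 (SD, n = 5), against 3.57 ± 0.05 in vehicle.

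rno-miR-30a-5p, a guide that differs from rno-miR-30e-5p by a single base, had levels of 3.50, 3.50, 3.68, 3.59 and 3.59 in vehicle. The AAI levels were 3.58, 3.57, 3.45, 3.55 and 3.60 at day 2, and 3.50, 3.21, 3.64, 3.68 and 3.62 at day 4. At day 6 they were 3.37, 3.69, 3.44, 3.46 and 3.61. The groups overlapped on every day, and the day 6 difference was -0.06 ± 0.09 (SE, adjusted p = 0.641). Its 95% interval of -0.24 to 0.12 leaves room for a change of either sign.

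The guides rno-miR-30b-5p and rno-miR-30d-5p are neighbours in the genome but their probes differed at 8 of the 14 bases compared. Vehicle levels of rno-miR-30b-5p ran from 2.34 to 2.46 and day 6 levels from 2.11 to 2.42, a difference of -0.13 ± 0.09 (SE, adjusted p = 0.253). For rno-miR-30d-5p the vehicle levels ran from 1.09 to 1.20 and the day 6 levels from 0.94 to 1.36, a difference of -0.03 ± 0.09 (SE, adjusted p = 0.832). Both groups overlapped in each case. The day 6 kidneys of rno-miR-30d-5p lay on either side of the vehicle kidneys.

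The other 3p arm, rno-miR-30a-3p, had vehicle levels of -0.16, -0.28, -0.06, -0.10 and -0.13 and day 6 levels of -0.50, -0.11, -0.37, -0.28 and -0.15. The groups overlapped, and the difference was -0.14 ± 0.09 (SE, adjusted p = 0.253).

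At day 6 all 7 differences were below 0, with a median of -0.14. Over all 262 tested miRNAs, 169 were below 0, with a median of -0.11. All 14 probes of the members, taken singly, also differed in that direction, from -0.34 to -0.02. Both probes of a member cover nearly the same bases on the same arrays, so they are not separate observations. Without scaling all 7 were above 0, with a median of 0.23 beside 0.26 over all tested. Both changes of sign follow from the constant of 0.37 that the scaling takes off, so the sign of the family's shift is fixed by the choice of scale. At day 2 the members' differences ran from -0.08 to 0.01 and at day 4 from -0.16 to 0.01. Without AAI day 4 replicate 2, 2 of 7 were below 0 at day 4, with a median of 0.04, in place of 6 of 7 with a median of -0.06.

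**Figure D2:**
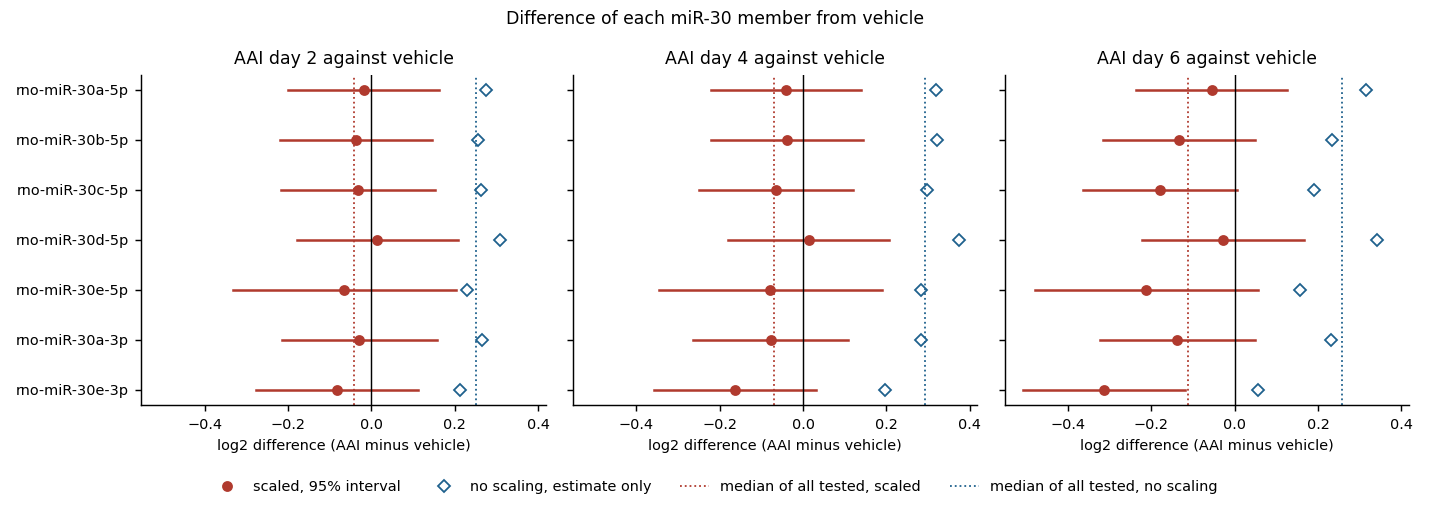
Log2 difference of each member from vehicle at AAI days 2, 4 and 6: filled points with 95% intervals are from the scaled fit, open diamonds from the fit without scaling, and dotted lines give the median of all 262 tested miRNAs. Only the interval of rno-miR-30e-3p at day 6 lies wholly below 0, and every unscaled difference is above 0.

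For 7 of 7 members the SD over kidneys of the scaled level was larger at AAI day 6 than in vehicle. Without scaling it was larger for rno-miR-30b-5p, rno-miR-30d-5p and rno-miR-30a-3p only. For rno-miR-30e-5p the unscaled SD was 0.289 in vehicle and 0.197 at day 6. These differences were not tested, and the share over all tested miRNAs is not given. On scaled levels, replicate 1 was the lowest and replicate 2 the highest of the AAI day 6 group for 7 of 7 members. Within the day 4 group replicate 2 was the lowest for 7 of 7. Without scaling, day 6 replicate 2 was instead the lowest of its group for every member. Day 4 replicate 2 was then the lowest for rno-miR-30e-5p only. The percentile used for scaling was 535 and 309 on day 6 replicates 1 and 2, and 559 on day 4 replicate 2. The share of all tested miRNAs with such an order is not given. AAI day 6 replicate 1 had 304 detected miRNAs and replicate 2 had 250, the fewest of all arrays. On the 2 low arrays the family's share of the summed signal was 6.87% (day 4 replicate 2) and 7.35% (day 6 replicate 1), against 8.38% to 9.40% on the other arrays. What part the quality of these arrays had in this was not tested. Left out singly, replicates 1 and 2 of day 6 moved the family's median from -0.14 to -0.10 and to -0.18, and rno-miR-30e-3p to -0.24 (adjusted p = 0.0439) and to -0.38 (adjusted p = 0.00432).

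The arms of a hairpin were compared within each array, where the scaling cancels. The 5p minus 3p log2 difference of miR-30a was 3.66, 3.78, 3.73, 3.69 and 3.71 in vehicle and 3.87, 3.80, 3.81, 3.74 and 3.76 at AAI day 6. The day 6 values were shifted up by 0.08 ± 0.04 (SE), the groups overlapped, and the shift did not pass over the 44 hairpins with both arms tested (adjusted p = 0.202, interval -0.01 to 0.17). At this day 20.5% of the 44 hairpins were called, and 0 of 2 here. For miR-30e the values were 2.76, 2.97, 2.99, 2.87 and 2.93 in vehicle and 3.0, 3.05, 2.92, 2.96 and 3.11 at day 6, a difference of 0.10 ± 0.08 (SE, adjusted p = 0.331, interval -0.06 to 0.27). The fall of rno-miR-30e-3p was thus not matched by a called change of the balance between the arms of its hairpin. At days 2 and 4 the differences were 0.01 ± 0.04 and 0.04 ± 0.04 (SE) for miR-30a and 0.02 ± 0.08 and 0.09 ± 0.08 for miR-30e, with 0 of 2 called on either day beside 4.55% and 9.09% of hairpins. By limma, 0 of these 6 differences from vehicle had an unadjusted p under 0.05.

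**Figure D3:**
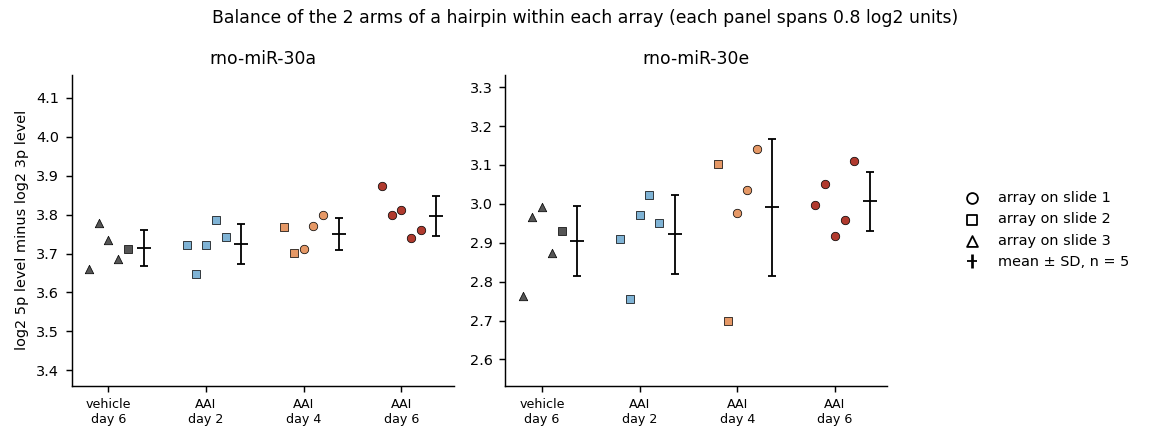
Difference between the log2 levels of the 5p and 3p arms of miR-30a and miR-30e on every array, by group; symbols give the slide, and bars give mean ± SD over 5 arrays. The AAI day 6 arrays overlap the vehicle arrays for both hairpins, with means of 3.80 against 3.71 for miR-30a and 3.01 against 2.91 for miR-30e.

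The guides were also set against each other within each array, as the log2 level of one minus the mean of the other 4, with no test. rno-miR-30c-5p stood at 1.19 to 1.28 in vehicle and at 1.14 to 1.19 at AAI day 6, and these ranges did not overlap. For rno-miR-30d-5p, vehicle values of -1.90 to -1.76 lay wholly below the day 6 values of -1.76 to -1.66. Each separation is a near tie of single arrays. For rno-miR-30c-5p it is 1.190 (vehicle replicate 2) against 1.187 (day 6 replicate 1). For rno-miR-30d-5p it is -1.763 (vehicle replicate 4) against -1.759 (day 6 replicate 5). These 2 of 5 guides stand beside 16.4% of all 262 tested miRNAs whose level, set against the mean of the guides in the same way, did not overlap between the groups. Between those means the changes were -0.07 and 0.12, and the changes of the 5 guides sum to 0 by construction. The ranges of rno-miR-30a-5p (1.20 to 1.29 against 1.26 to 1.36), rno-miR-30b-5p (-0.28 to -0.21 against -0.34 to -0.19) and rno-miR-30e-5p (-0.54 to -0.37 against -0.66 to -0.41) overlapped, with changes of 0.08, -0.02 and -0.11. After quantile normalization the changes of rno-miR-30b-5p and rno-miR-30e-5p turned to 0.09 and 0.08 and that of rno-miR-30d-5p shrank to 0.01, while rno-miR-30c-5p stayed lower at -0.21. In the deposited series table rno-miR-30d-5p turned to -0.01, rno-miR-30b-5p and rno-miR-30e-5p to 0.07 each, and rno-miR-30c-5p was at -0.16. Ranges at days 2 and 4 overlapped vehicle for all 5 guides.

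**Figure D4:**
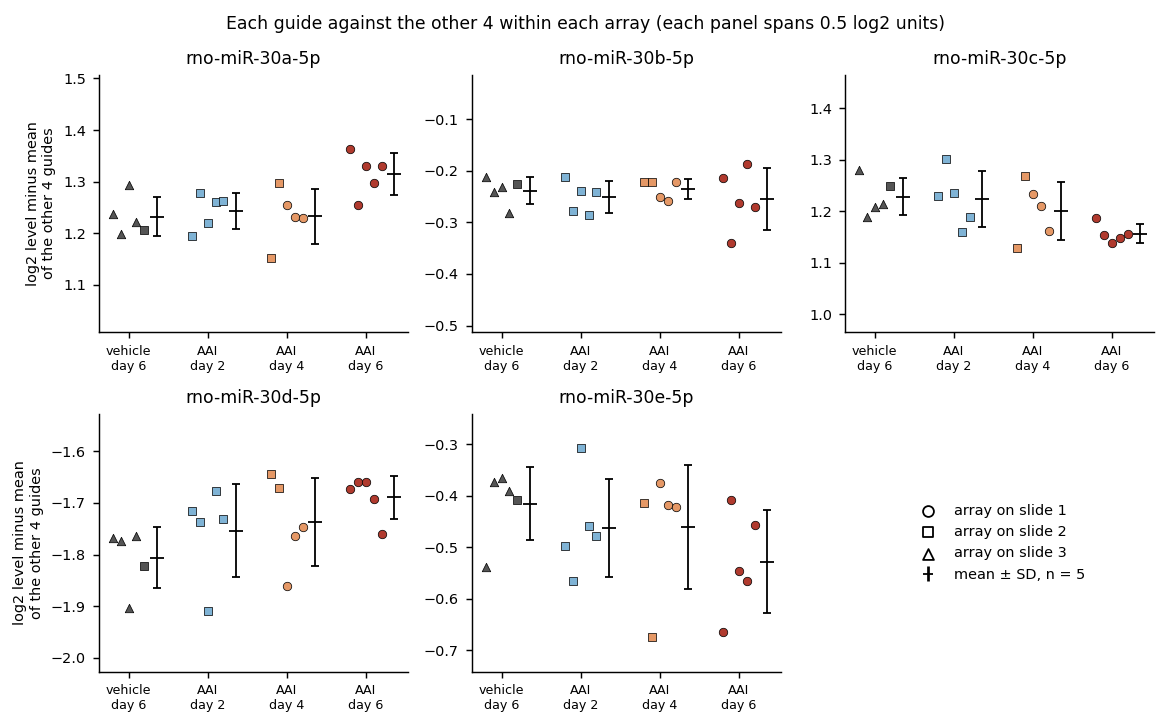
Log2 level of each guide minus the mean of the other 4 guides on every array, by group; symbols give the slide, and bars give mean ± SD over 5 arrays. Relative to the other guides, rno-miR-30c-5p is lower (mean change -0.07) and rno-miR-30d-5p higher (0.12) on all AAI day 6 arrays than on all vehicle arrays. Each separation is a near tie of single arrays. With normexp or in the deposited series table the ranges overlap, and in that table rno-miR-30d-5p turns to -0.01. With quantile normalization the ranges of rno-miR-30d-5p overlap.

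The 4 other arms of the family gave dim signals, and for 3 of them not all spots of the brightest probe were well above background on every array. rno-miR-30c-2-3p, the passenger arm of Mir30c2, was detected on all 20 arrays with all spots of its brighter probe well above background, and its levels ran from -2.64 to -2.50 in vehicle and from -2.88 to -2.38 at day 6 (-0.01 ± 0.08 SE, adjusted p = 0.930). rno-miR-30b-3p ran from -4.72 to -4.06 in vehicle and from -4.55 to -2.91 at day 6 (0.66 ± 0.25 SE, adjusted p = 0.0631). At day 4 its kidneys, at -4.0 to -3.18, did not overlap vehicle (0.72 ± 0.25 SE, adjusted p = 0.118), as did 6.87% of all tested miRNAs. On the probe with the largest share of spots well above background, taken anew on each array, that share was 0% to 60% in vehicle and 100% at day 4. Over all its probes it was 0% to 20% in vehicle and 35% to 50% at day 4. rno-miR-30c-1-3p went from -3.24 ± 0.19 (SD, n = 5) in vehicle to -3.87 ± 0.75 at day 6 (adjusted p = 0.116), and rno-miR-30d-3p, detected on 18 of 20 arrays, differed by 0.03 ± 0.19 SE. By limma 0 of 4 passed at any day against vehicle, with 1, 1 and 2 at an unadjusted p under 0.05 at days 2, 4 and 6.

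Levels of the members rose and fell together over the 20 arrays, and the points also share array brightness and RNA quality, whose part was not tested. Pearson's r between the 21 member pairs ran from 0.587 (rno-miR-30d-5p with rno-miR-30e-3p) to 0.947 (rno-miR-30c-5p with rno-miR-30a-3p), and between the 10 guide pairs from 0.784 to 0.944. The arms of a hairpin had an r of 0.910 for miR-30a and 0.818 for miR-30e. Without the 2 arrays farthest from the median, AAI day 4 replicate 2 and AAI day 6 replicate 1, these arm values were 0.853 and 0.649, member pairs ran from 0.257 to 0.889 and guide pairs from 0.542 to 0.888.

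Of the tested miRNAs outside the family, those most like the mean of the 5 guides over the 20 arrays were rno-miR-429 (r = 0.934), of the miR-200 family of epithelial cells, and rno-miR-26a-5p (r = 0.920). They were followed by rno-miR-126a-5p (0.866), an endothelial miRNA, rno-miR-106b-5p (0.866) and rno-miR-200a-3p (0.863). The median r over the 251 tested non-members was 0.42. Without the same 2 arrays the r of these 5 ran from 0.728 (rno-miR-200a-3p) to 0.874 (rno-miR-26a-5p), over 18 arrays.

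Beside the family, 12 of 13 listed kidney epithelial miRNAs could be tested, and 5 of the 12 were lower and 0 higher at AAI day 6, beside 26.0% of all tested called in either direction. These were rno-miR-192-5p (-0.56 ± 0.13 SE, adjusted p = 0.00445), rno-miR-194-5p (-0.63 ± 0.13, 0.00226), rno-miR-204-5p, rno-miR-196a-5p and rno-miR-196b-5p, and the median of the 12 was -0.19 beside -0.14 for the miR-30 members. These calls depended on the scale and on other processing. Without scaling, with spike-in scaling and with the software's total signal 0 of 12 were called. Scaling to the median left 1 (rno-miR-194-5p) and normexp 2. A fixed slide block called 7 lower, but 0 once AAI day 4 replicate 2 was left out. Leaving out AAI day 6 replicate 2 gave 6 lower. Whether the miR-30 members fell less than these was not tested. Over the marker lists, summed levels (relative to the 75th percentile, not logged) ran from 25.1 to 27.1 in vehicle and from 19.4 to 24.3 at day 6 for 5 kidney epithelial miRNAs. They ran from 4.02 to 4.23 and from 2.69 to 3.53 for 6 leukocyte miRNAs, from 8.94 to 9.15 and from 6.98 to 8.78 for 2 endothelial miRNAs, and from 8.36 to 9.61 and from 7.27 to 9.03 for 6 stromal ones. For 3 erythroid miRNAs they ran from 0.408 to 1.35 and from 0.0517 to 0.198, and for 10 miRNAs of liver, muscle, brain and pancreas from 0.126 to 0.365 and from 0.225 to 0.444. These sums are on the scaled levels only. Dropping the scaling adds 0.37 to a mean log2 difference between day 6 and vehicle. Whether a sum is lower or higher at day 6 can therefore depend on the scale. The part of these cell types in the fall of rno-miR-30e-3p was not tested.

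**Figure D5:**
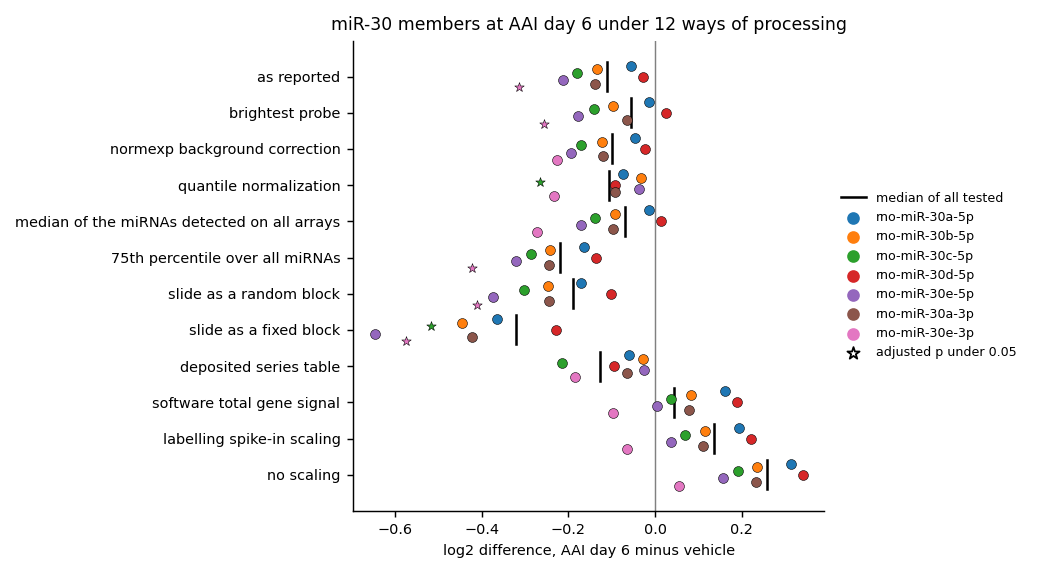
Log2 difference of each member between AAI day 6 and vehicle under the reported processing and 11 alternatives; stars mark an adjusted p under 0.05, and black bars the median of all tested miRNAs. The 4 alternatives that change only the scaling factor of an array move all members by 1 constant each, so their order there is that of the reported processing by construction; without scaling all 7 members lie above 0.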

How the data were processed

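The authors deposited scanner output of Agilent Feature Extraction 10.7.1.1, per the file headers, and its background-subtracted intensity per spot, not yet scaled between arrays, was used. The deposited marks for detection and outliers are flags, an other kind of value (0 or 1). A deposited table of log2 values for the whole series, whose making is not given in the sources used here, served as an alternative only. Probe coordinates are on rn4, per the file headers.

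For each miRNA, the mean intensity of spots without an outlier flag was summed over its probes. It was divided by the array's 75th percentile over the 231 miRNAs detected on all arrays, floored at 0.00640 (no member value lay there) and put on the log2 scale. For the 262 miRNAs that every array of some group detected, limma 3.58.1 (R 4.3.3) gave 4 group means, tested two-sided, with Benjamini-Hochberg adjustment within each comparison and a call at an adjusted p under 0.05. Arm differences were fitted likewise over 44 hairpins. The fits were tested on simulated data. The number of arrays limits the precision. Labels name separate kidneys; p-values measure the spread between these.

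Members and lists were chosen with earlier results of these data known. All 7 members, the 4 other arms, the 5 non-members most correlated with the guides and the listed kidney epithelial miRNAs were to be named. Array scaling, background correction, probe summary, filters, slide and replicate blocks and left-out arrays were tried as alternatives.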

Additional observations from a re-analysis of the deposited data

Results flagged for a closer look

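In 5 of 56 groups of 5 arrays examined, 1 array stood apart from the other 4 by the Dixon test, which chance alone does in about 1 in 20 groups. AAI day 4 replicate 2 was low for rno-miR-30b-5p (level 1.99, the others 2.40 to 2.49), for rno-miR-30e-5p (1.63, the others 2.25 to 2.36) and for rno-miR-30e-5p against the other guides (-0.67, the others -0.42 to -0.38). AAI day 2 replicate 3 was low for rno-miR-30d-5p against the other guides (-1.91, the others -1.74 to -1.68), and vehicle replicate 1 for rno-miR-30e-5p against the other guides (-0.54, the others -0.41 to -0.37).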

How the results depend on the processing

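Over 28 alternatives at AAI day 6 against vehicle, rno-miR-30e-3p was below 0 in 27 and called in 20, including all 10 that left out 1 array (-0.38 to -0.24, adjusted p 0.00432 to 0.0439). Without scaling it turned to 0.056. In place of 1 member, 0 were called without scaling, with scaling to spike-ins or to the median, with normexp, with the software's total signal, in the deposited series table, and with slide as a fixed block without AAI day 4 replicate 2. With quantile normalization the 1 member called was rno-miR-30c-5p. With slide as a fixed block 2 were called, and leaving out 1 array gave 1 to 2 (2 without AAI day 6 replicate 2). For day 6 against day 2, slide as a fixed block called 5 members in place of 0, and 0 without AAI day 4 replicate 2; leaving out 1 array gave 0 to 1 (1 without AAI day 6 replicate 2). Of the 4 other arms, 1 was called in place of 0 at day 6 without scaling and with the percentile over all miRNAs, and 0 to 1 with 1 array left out (1 without AAI day 6 replicate 1 or 5). The 2 guides whose ranges did not overlap became 0 with normexp and in the deposited series table, and 2 to 3 with 1 array left out (3 without AAI day 6 replicate 2 or vehicle replicate 1 or 3). With quantile normalization they were still 2, but rno-miR-30b-5p and rno-miR-30c-5p, while the ranges of rno-miR-30d-5p overlapped. In each case the cause was not tested. No member was called under any alternative in the other 4 comparisons, nor the arm balance at any day. Within slide 2, member differences ran from -0.11 to -0.01 at day 2 and from -0.36 to -0.12 at day 4, each against 1 vehicle array (-0.22 to 0.10 at day 4 without its replicate 2, which leaves 1 array against 1), and within slide 1 they ran from -0.29 to -0.11 for day 6 against day 4. Same-numbered arrays of different groups did not, as a rule, deviate together (30 pairs, correlation -0.62 to 0.66, median -0.07, 4 of 20 arrays closest to their own number). The reported fit therefore did not pair samples by number, although these correlations cannot exclude a pairing. With the replicate block 1 member was called at day 6 and 0 in the other comparisons, and 0 of 2 arm balances. Calls at day 6 over all tested miRNAs were 68 (19 higher), against 34 (33 higher) without scaling, 21 (20 higher) with spike-ins, 27 (16 higher) with the median, 23 (19 higher) with the software's total signal, which for 47 to 70 miRNAs per array was over 2 times the sum of their own probe totals, and 13 (3 higher) with normexp. For the 4 dim other arms signal close to background limits the values.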

Other observations

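The scanner software deposits its own total signal per miRNA. For the 7 members and rno-miR-30c-2-3p this total equalled the sum of the software's probe totals on every array (ratio 1.00). For 3 of the dim arms it did not. The total of rno-miR-30b-3p was 2339 to 4286 on 20 of 20 arrays, although its probes summed to 5.00 to 23.3. It exceeded the total of rno-miR-30a-5p on the same array by only 2.41 to 22.6. The total of rno-miR-30c-1-3p exceeded that of rno-miR-30b-5p by 3.13 to 14.8 on 15 arrays, and on the other arrays it was at most 25.1. The total of rno-miR-30d-3p exceeded that of rno-miR-30c-5p by 2.10 to 6.46 on the 18 arrays that detected it. Over all miRNAs, 47 to 70 per array had a software total over 2 times the sum of their own probe totals, among those with a total above 15. The reported levels were summed from spots; these totals enter only the alternative named as the software's total signal.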
